A study of Caenorhabditis elegans and Caenorhabditis briggsae and Caenorhabditis remanei with 48 samples.

Results

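The mRNA response of Caenorhabditis brenneri to 3 h of feeding was measured in 6 mRNA-seq libraries, 3 from developing larvae and 3 from larvae in L1 diapause. C. brenneri is a gonochoristic (male and female) nematode, and the animals were whole larvae of the strain PB2801. Diapause larvae had hatched in S-complete liquid medium at 20 °C and were harvested after 24 h of starvation, whereas developing larvae were then fed the bacterial strain E. coli HB101 for 3 h, at 15 mg per mL. Both states therefore share the 24 h without food, and the only labelled difference between them is the feeding. Developing larvae were harvested 3 h later than diapause larvae, and no larvae left unfed for those 3 h were sampled. Feeding therefore cannot be told apart from the added 3 h in culture. The larger study comprised 48 libraries from 4 species (C. brenneri, C. elegans, C. briggsae and C. remanei), both states and 2 assays, mRNA-seq and ribosome-protected fragments (RPFs). Each biological replicate began as 1 batch of animals that was split between the states.

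Transcripts with a mean of at least 50 normalized reads over both states were analysed. A normalized read count is the number of reads over a coding sequence divided by the size factor of its library, so that libraries of unequal depth can be set side by side. This limit kept 14617 of the 28607 coding sequences of the C. brenneri mRNA table, which is 51.1% of its rows and 99.1% of its normalized reads, out of 103767 rows in the mRNA tables of the 4 species. The last coding sequence left out had a mean of 49.98 and a log2 change of -0.12, and the first one kept lay just above 50 with a log2 change of -0.53.

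Newly hatched Caenorhabditis larvae that find no food stop development at the first larval stage and can survive in this state for weeks. Feeding releases the arrest, and growth, protein synthesis and cell division resume. In C. elegans, the state shares regulators with dauer, an alternative stress-resistant larval stage, and starved larvae depend on autophagy and stress resistance. The reads of a transcript give its share of the library's RNA, and in whole larvae a change in the number of cells of a type cannot be told apart from a change of RNA per cell.

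The reads of single libraries were recovered from the deposited means as whole numbers. They summed to between 11277414 and 23186858 per developing library and to between 9128165 and 19720508 per diapause library. The libraries of each state are called a, b and c from the deepest to the shallowest, and no label ties them to a batch. Within a state, log2 values of the members deviated most from the state mean in library a, with a standard deviation of 0.33 in developing larvae and 0.29 in diapause larvae. The other 4 libraries had standard deviations between 0.20 and 0.27. Across genes, deviations of developing library a correlated with those of diapause library a (r = 0.79), as did those of both libraries b (r = 0.59) and both libraries c (r = 0.67).

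Feeding for 3 h was followed by changes in a large share of the transcriptome, most of them modest in size. Of 14612 members tested, 3972 were higher in developing larvae and 2710 were lower at an adjusted p under 0.1 (limma, Benjamini-Hochberg over all rows). Calls were made for 27.3% of all 28602 rows tested in either direction, for 15.2% as higher and for 12.1% as lower, against 45.7%, 27.2% and 18.5% of the members tested. The median member that was called higher had a 1.68-fold higher level in developing larvae, and the median member called lower was 1.63-fold lower. The median standard error of a log2 change was 0.15 (quartiles 0.13 and 0.19).

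Which direction held more members depended on the scaling. With libraries scaled by total recovered reads instead of the authors' size factors, the median log2 change of all members shifted to -0.17 from 0.02, and 2932 members were called higher and 4468 lower. A fit with libraries paired by order of depth, added after seeing the data, called 4906 higher and 4132 lower. Without library b of the developing state, 2977 were called higher and 1624 lower. Without library b of the diapause state, 3276 were called higher and 1791 lower.

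Most members stayed within 2-fold. The log2 ratio of the developing mean over the diapause mean had a median of 0.02, quartiles of -0.33 and 0.44, and 5th and 95th percentiles of -0.99 and 1.22. In all, 1185 members (8.11%) were above 2-fold higher in developing larvae and 716 (4.90%) were above 2-fold lower, while 87.0% lay between. Over all rows with reads in both states, 8.96% were above 2-fold higher and 10.7% were above 2-fold lower. Above 4-fold there were 137 members (0.937%) on the higher side and 64 (0.438%) on the lower side. Of the members above 2-fold, 1171 of the higher and 657 of the lower passed the test, and 73 in either direction did not.

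The libraries of the states did not overlap in 52.9% of the members tested, against 35.2% of all rows tested. Developing libraries all lay above the diapause libraries in 4573 members and all lay below them in 3161, with shares of 18.7% and 16.5% over all rows. Of the 6682 members called, 253 had groups that overlapped.

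**Figure D1:**
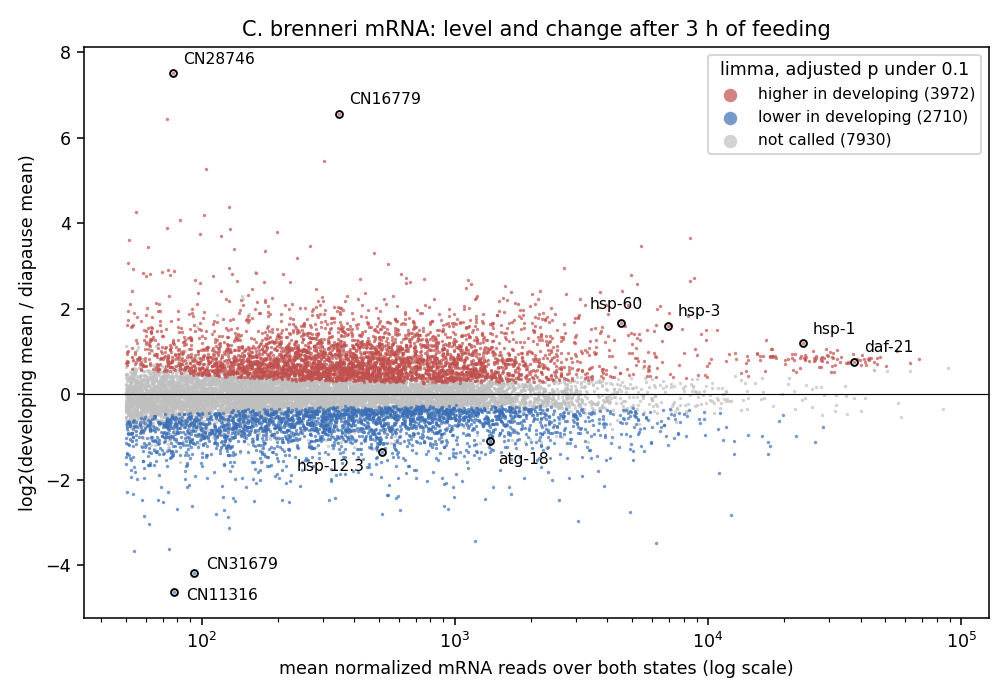
Mean normalized mRNA reads over both states (x axis, log scale) against the log2 ratio of the developing over the diapause mean (y axis) for the 14612 members tested, 1 point per transcript. Red points (3972) were called higher in developing larvae, blue points (2710) lower and grey points (7930) were not called, and circles mark named transcripts. Most points lie between -1 and 1, with a band of highly abundant transcripts on the right that sits above 0.

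At the extremes, single transcripts had few normalized reads in one state and many more in the other. No annotation at hand gives these identifiers a name or a role. They were picked as the largest changes among called members whose libraries did not overlap, and each reached the mean of 50 through 1 state only, so their values are a description. The largest rise was that of CN28746, which had 99.4, 198 and 162 normalized reads in developing libraries a, b and c, against 0, 1.10 and 1.42 in diapause libraries. Only 2 reads stood behind all the diapause values and 465 behind the developing ones. The scaled ratio of these reads was 224, with an exact 95% interval of 61.5 to 1851 that covers counting error only.

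The second largest rise was that of CN16779, with 473, 978 and 625 normalized reads in developing larvae, against 4.73, 8.81 and 8.55 in diapause larvae. Its log2 difference, on log2(normalized reads + 1), was 6.35 ± 0.30 (SE, n = 3 libraries per state).

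The largest fall was that of CN11316, with 2.74, 1.02 and 14.3 normalized reads in developing larvae, against 210, 158 and 82.6 in diapause larvae. CN31679 had 5.49, 12.2 and 11.7 in developing larvae, against 245, 231 and 55.6 in diapause larvae. Diapause library c was the lowest of its state in both transcripts. The log2 difference was -4.85 ± 0.65 for CN11316 and -3.85 ± 0.53 for CN31679. With 1 library left out it lay between -5.68 and -4.22 for CN11316 and between -4.54 and -3.48 for CN31679. Without library a of both states, which leaves 2 libraries per state, neither was called (limma adjusted p of 0.128 for CN11316 and 0.116 for CN31679).

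A curated set of 19 genes of starvation and diapause was followed by name. The study had selected these genes for significant RPF changes in at least 2 species of these data, so their directions are not independent evidence. All but hsp-12.6, with a mean of 36.5, reached the limit of 50. Of the 19, 7 rose, 9 fell and 3 were not called, beside 15.2% higher and 12.1% lower over all rows tested. The median log2 ratio of means was -0.33 over these genes of both directions, against 0.02 over all members. By list, 5 of the 8 heat shock genes rose and 3 fell, all 3 autophagy genes fell, and 1 of the 5 dauer genes rose and 3 fell. In the stress and insulin signalling list, 1 of the 3 genes rose with none falling. The gene that rose is listed there as daf-2 but is called daf-21, the Hsp90 gene, below. The others of that list, nhr-49 and sod-1, were not called. The genes that rose in the heat shock list were the constitutive chaperones of cytosol, endoplasmic reticulum and mitochondria and the small heat shock gene hsp-17, whereas the 3 that fell all encode small heat shock proteins. Roles given for these genes are those known in C. elegans.

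The mitochondrial chaperones both rose. For hsp-60, the chaperonin of the mitochondrial matrix (CN18082), developing libraries a, b and c had 7919, 6778 and 5935 normalized reads, against 2318, 2194 and 1952 in diapause libraries. Every developing library was above every diapause library, and the log2 difference was 1.67 ± 0.14 (SE, n = 3 per state, limma adjusted p = 2.53e-05). For hsp-6, the mitochondrial Hsp70 (CN17741), the values were 3879, 4639 and 4239 in developing larvae, against 1646, 1776 and 1657 in diapause larvae. This difference was 1.33 ± 0.12 (adjusted p = 3.11e-05, limma). Both changes lay in the upper 5% of the members' changes, at percentiles 98.1 and 96.0.

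The Hsp70 proteins of the other compartments moved in the same direction. hsp-3, an Hsp70 of the endoplasmic reticulum related to BiP (CN24264), had 11244, 10688 and 9391 normalized reads in developing larvae and 3283, 3103 and 4029 in diapause larvae. Its log2 difference was 1.59 ± 0.15 (limma adjusted p = 4.03e-05). hsp-1, the constitutive cytosolic Hsp70 (CN22591), had 35150, 33430 and 29719 in developing larvae and 13526, 16304 and 13372 in diapause larvae. The lowest developing library was still above the highest diapause library, with a log2 difference of 1.19 ± 0.18 (limma adjusted p = 0.000853).

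The cytosolic Hsp90 gene was tied to a less firm call. This transcript (CN20329) stands in the curated list as daf-2, but the C. elegans protein listed beside it is paired with daf-21, the Hsp90 gene, elsewhere in the study, and it is called daf-21 here. It had 52228, 48526 and 40814 normalized reads in developing larvae and 26476, 33233 and 24643 in diapause larvae, with no overlap. The log2 difference was 0.75 ± 0.22 (limma adjusted p = 0.0315). Leaving out 1 library at a time, the difference stayed between 0.66 and 0.88, while the adjusted p ranged from 0.0555 to 0.148 and missed 0.1 in 4 of 6 fits, those without library a or b of the developing state and without library a or c of the diapause state. The limma adjusted p was 0.00679 with voom weights and 0.267 without library a of both states. It was 0.00477 with libraries paired by order of depth, a pairing chosen after seeing the data.

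Genes of small heat shock proteins moved in both directions. hsp-17 (CN12438) had 792, 869 and 676 normalized reads in developing larvae, against 289, 278 and 281 in diapause larvae, and rose by 1.45 ± 0.12 on the log2 scale (limma adjusted p = 2.53e-05). hsp-12.3 (CN09020) had 299, 260 and 313 in developing larvae, against 907, 803 and 521 in diapause larvae. Its log2 difference was -1.32 ± 0.19 (limma adjusted p = 0.000636), which put it at percentile 1.87 of the members' changes.

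The other falling members of the family changed less or less evenly. hsp-43 (CN01178) had 788, 574 and 656 normalized reads in developing larvae and 1058, 967 and 950.3 in diapause larvae, without overlap, for a log2 difference of -0.57 ± 0.13 (limma adjusted p = 0.0106). hsp-12.6 (CN25039) had 18.5, 22.4 and 16.9 in developing larvae and 66.2, 73.8 and 21.4 in diapause larvae. Here diapause library c fell inside the developing range, and the log2 difference of -1.26 ± 0.43 (limma adjusted p = 0.0645) kept its call in 1 of 6 fits with a library left out, that without diapause library c.

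All 3 autophagy genes fell in developing larvae. atg-18, a phosphoinositide-binding protein needed to form autophagosomes (CN05856), had 952, 768 and 914 normalized reads in developing larvae, against 1890, 1906 and 1834 in diapause larvae. The states were far apart relative to their spread, with a log2 difference of -1.10 ± 0.11 (limma adjusted p = 8.52e-05). unc-51, the kinase that starts autophagy (CN19755), had 2610, 2098 and 2241 in developing larvae and 3849, 3541 and 3233 in diapause larvae. It changed by -0.61 ± 0.13 (limma adjusted p = 0.00604). atg-3, an enzyme that attaches lipid to the autophagosome protein LGG-1 (CN25275), had 860, 755 and 756 in developing larvae and 1025, 1233 and 1043 in diapause larvae, a change of -0.47 ± 0.12 (limma adjusted p = 0.0154). None of the 3 overlapped between states, and each kept its call in all 6 fits with 1 library left out.

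In the dauer list, mfb-1 and odr-4 moved in opposite directions. mfb-1, an F-box protein (CN18747), had 271, 187 and 244 normalized reads in developing larvae, against 523, 462 and 511 in diapause larvae, and its log2 difference was -1.10 ± 0.15 (limma adjusted p = 0.000443). odr-4, a membrane protein that helps deliver odorant receptors to cilia (CN24926), had 761, 672 and 678 in developing larvae, against 433, 430 and 395 in diapause larvae. It rose by 0.75 ± 0.11 on the log2 scale (limma adjusted p = 0.000755).

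Other dauer genes had smaller differences. T19F4.1 (CN21784) had 154, 133 and 137 normalized reads in developing larvae and 236, 231 and 178 in diapause larvae, with a log2 difference of -0.59 ± 0.16 (limma adjusted p = 0.0203). daf-15, the worm Raptor and a partner of the TOR kinase (CN20085), had 1170, 1342 and 1300 in developing larvae and 1561, 1703 and 1523 in diapause larvae, a difference of -0.33 ± 0.11 (limma adjusted p = 0.0567). Neither gene overlapped between states. With 1 library left out, the log2 difference stayed between -0.72 and -0.52 for T19F4.1 and between -0.37 and -0.27 for daf-15. The adjusted p passed 0.1 in some of these smaller fits, reaching 0.118 for T19F4.1 (without library b of either state) and 0.142 for daf-15 (without developing library a or c or diapause library b).

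Of the curated genes, 3 were not called. lite-1, a light receptor of sensory neurons (CN12269), had 226, 164 and 154 normalized reads in developing larvae, overlapping with 309, 213 and 217 in diapause larvae (log2 difference -0.44 ± 0.19, limma adjusted p = 0.149). nhr-49, a nuclear receptor of fat metabolism in fasting (CN03087), had 1769, 1466 and 1573 in developing larvae and 2104, 1850 and 1861 in diapause larvae (-0.28 ± 0.12, limma adjusted p = 0.133). For both, library a was the highest of its state, and pairing the libraries by order of depth gave limma adjusted p-values of 0.00753 for lite-1 and 0.0203 for nhr-49. That pairing was chosen after seeing the data and not from labels, so these values make no call. sod-1, a cytosolic superoxide dismutase (CN17516), had 1558, 1480 and 1433 in developing larvae and 1466, 1475 and 1485 in diapause larvae. Its log2 difference of 0.01 ± 0.10 (limma adjusted p = 0.945) was smaller than its error, and its sign turned with the scaling.

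**Figure D2:**
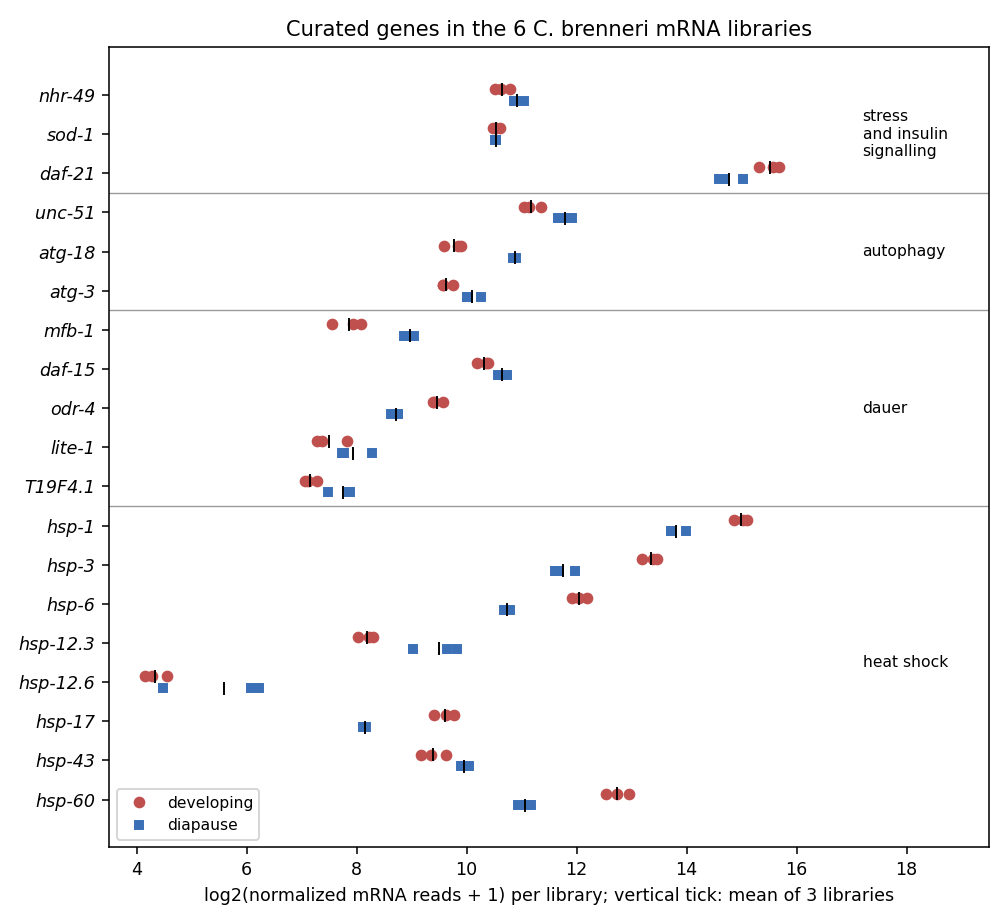
Log2(normalized mRNA reads + 1) of the 19 curated genes in each of the 3 developing (red circles, above) and 3 diapause (blue squares, below) libraries, with a black tick at each state's mean and lines between the 4 lists. The red points lie right of the blue ones for hsp-60, hsp-3, hsp-6, hsp-1, hsp-17, daf-21 and odr-4, and left of them without overlap for 9 genes.

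Across 5 broad classes of abundance, the median change was small and its sign varied, while the median absolute change was alike. Members were split into 5 classes of equal size by mean normalized reads, which grow with transcript length as well as with level. In the lowest class (means of 50 to 116) the median log2 change was -0.09, and 407 members rose while 457 fell. In the middle class it was 0.08, with 951 higher and 525 lower, and in the highest class it was 0.04, with 942 higher and 635 lower. The median standard error was 0.22 in the lowest class and 0.13 in the highest, so fewer calls among rarer transcripts stand beside less precise values. The class medians are small beside the shift from 0.02 to -0.17 in the median of all members with total-read scaling, so their signs are not firm. The median absolute log2 change was between 0.37 and 0.39 in every class. It includes measurement error, which was larger in the lowest class, so these values do not show that the true changes were of equal size.

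The 100 members with the most reads stood apart from the rest. Their median log2 change was 0.74 (quartiles 0.16 and 0.84), against 0.02 over all members. Reads of single libraries were recovered for 95 of them, which together held 25.3%, 27.6% and 24.7% of the members' normalized reads in developing libraries a, b and c, against 18.99%, 22.6% and 20.7% in diapause libraries. The developing shares were all higher than the diapause shares. Of the 95, 65 were called higher and 3 lower, against 15.2% and 12.1% of all rows tested. In 70 every developing library was above every diapause library, against 18.7% of all rows. In 9 every developing library was below every diapause library, against 16.5% of all rows.

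That count of calls was less firm than the median. With 1 library left out the fitted median log2 difference stayed between 0.66 and 0.88, but the number called higher was 14 without developing library b, 19 without diapause library a and 41 without diapause library c. Without library a of both states it was 1, with a median of 0.67, and with total-read scaling 60 were called higher and 10 lower with a median of 0.56.

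**Figure D3:**
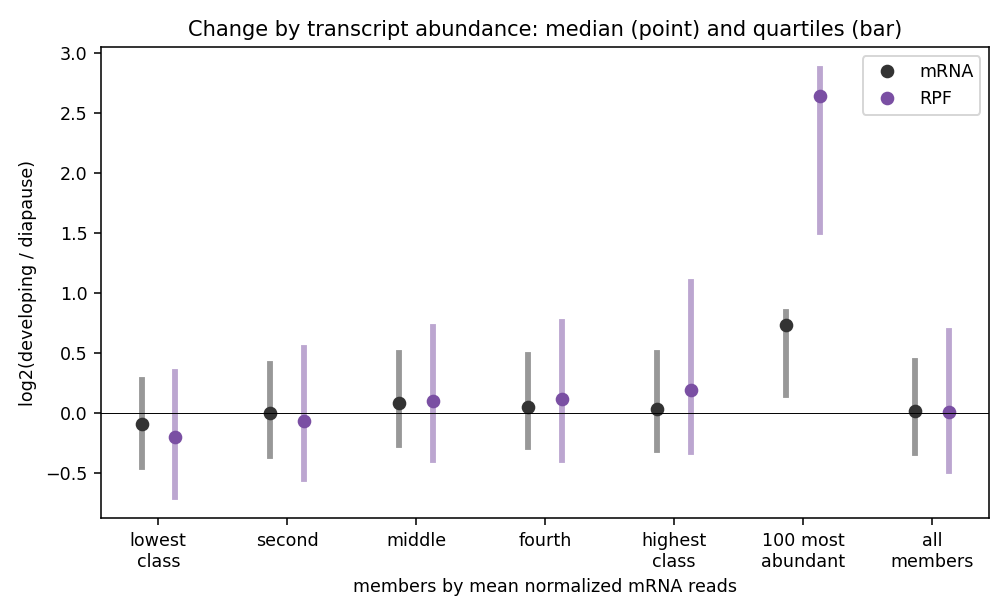
Median (point) and quartiles (bar) of the log2 change, developing over diapause, in 5 equal classes of the members by mean normalized mRNA reads, in the 100 most abundant members and in all members, for mRNA (black) and RPFs (purple). The 5 classes have mRNA medians between -0.09 and 0.08, while the 100 most abundant members are at 0.74 in mRNA and 2.64 in RPFs.

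Ribosome profiling of the same species gave a readout that had no part in the limit of 50, although it did choose the curated genes. RPFs are the fragments of mRNA covered by a ribosome, so that their counts follow both transcript abundance and ribosome binding. All 14617 members had a row in the RPF table. Of 14605 tested in both assays, 5290 RPF levels were higher in developing larvae and 4171 were lower (limma adjusted p under 0.1), or 36.2% and 28.6%. Over all 26756 rows tested, 42.8% were called in either direction, 21.7% as higher and 21.2% as lower. The spread of the changes was wider than in mRNA, with a standard deviation of 0.98 on the log2 scale against 0.70, and 16.8% of members were above 2-fold higher and 9.47% above 2-fold lower. Median standard errors were alike, at 0.14 for RPF and 0.15 for mRNA changes.

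Most mRNA changes were carried into the RPFs. Of 3971 members with higher mRNA, 3674 (92.5%) also had higher RPF levels and 3 had lower ones. Of 2710 members with lower mRNA, 2189 (80.8%) had lower RPF levels and 100 had higher ones. The median log2 RPF change was 1.04 for members with higher mRNA, beside 0.75 in mRNA, and -0.82 for members with lower mRNA, beside -0.70 in mRNA. Members without an mRNA call had RPF calls too, 1516 higher and 1979 lower of 7924. Across 14613 members, mRNA and RPF changes had Pearson's r of 0.85 and Spearman's rho of 0.85, as a description over transcripts measured in libraries of the same 3 batches.

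Larger mRNA changes came with larger RPF changes. The 137 members above 4-fold higher in mRNA had a median mRNA change of 2.36 on the log2 scale and a median RPF change of 2.70, and 135 of them were higher in RPFs as well. The 1048 members between 2-fold and 4-fold higher had medians of 1.27 in mRNA and 1.66 in RPFs. On the lower side, the 652 members between 2-fold and 4-fold had medians of -1.21 in mRNA and -1.43 in RPFs. The 64 members above 4-fold lower had medians of -2.44 in both, and all 64 were lower in RPFs.

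**Figure D4:**
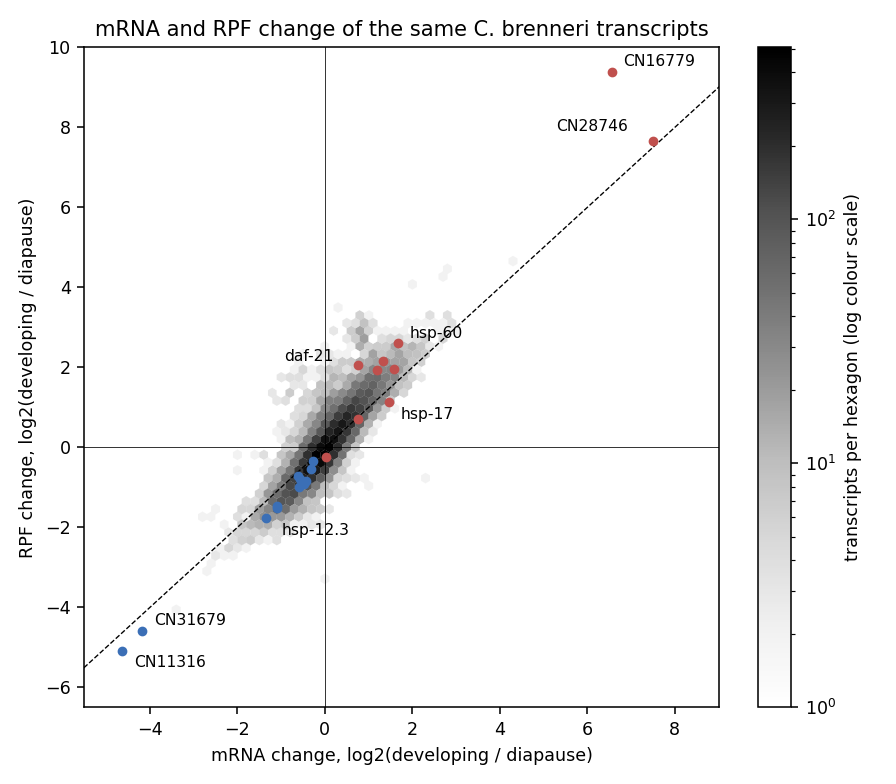
Log2 change of mRNA (x axis) against log2 change of RPFs (y axis), developing over diapause, for 14613 members as hexagons shaded by the number of transcripts, with named transcripts as points (red for a positive mRNA change, blue for a negative one). The dashed line marks equal changes. The cloud runs steeper than the line, and a group near 0.8 in mRNA lies at about 3 in RPFs.

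A direct test of the difference between the assays, in 1 fit of all 12 libraries, was passed by 10.2% of the members, against 5.86% of all 26455 rows tested. The RPF change lay above the mRNA change in 1364 of 14605 members and below it in 130, against 5.26% and 0.597% of all rows. The lower count fell to 53, 63 and 87 without RPF developing library c, RPF diapause library b and RPF diapause library c, and to 68 and 71 without mRNA developing library c and mRNA diapause library b.

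More RPF changes above the mRNA change were called among abundant transcripts. The highest of the 5 classes held 691 of the 1364 and the lowest held 43. Of the 100 most abundant members, 90 were tested, and 72 had an RPF change above their mRNA change and 1 below it. Over all 100 most abundant members, the median log2 RPF change was 2.64, beside 0.74 in mRNA. In the 100 members that had lower mRNA but higher RPF levels, the median log2 change was -0.62 in mRNA, against 1.18 in RPFs. Of these, 77 belonged to the most abundant of the 5 classes.

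Among the curated genes, which RPF changes in these data had selected, RPF levels rose for 7 and fell for 12. All 7 that rose in mRNA also rose in RPFs and all 9 that fell in mRNA also fell in RPFs, as did nhr-49, lite-1 and sod-1, which had no mRNA call. For sod-1 this call (log2 difference -0.25 ± 0.10, limma adjusted p = 0.0840) was lost without RPF developing library b or c, at 0.106 and 0.141. For 3 of the 19, all chaperones, the difference between the assays passed its test, with the RPF change above that of mRNA.

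hsp-60 had 11634, 11197 and 13368 normalized RPF reads in developing larvae, against 2099, 1873 and 2002 in diapause larvae. The RPF difference of 2.60 ± 0.12 exceeded that of mRNA by 0.93 ± 0.18 on the log2 scale (limma adjusted p = 0.00847). hsp-6 had 10205, 9032 and 10874 RPF reads in developing larvae and 2450, 2335 and 1965 in diapause larvae, and its RPF change was larger by 0.83 ± 0.17 (limma adjusted p = 0.0102). daf-21 had 40926, 38042 and 49210 in developing larvae and 10462, 10137 and 10145 in diapause larvae, an RPF change larger by 1.30 ± 0.27 (limma adjusted p = 0.0125). These 3 differences kept their calls in all 12 fits with 1 library left out.

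For hsp-1, hsp-3 and hsp-17 the same difference did not pass the test. It was 0.73 ± 0.24 for hsp-1 (limma adjusted p = 0.138), 0.39 ± 0.23 for hsp-3 (0.505) and -0.31 ± 0.15 for hsp-17 (0.362). Of the autophagy genes, atg-3 had an RPF change of -0.92 ± 0.10 beside -0.47 ± 0.12 in mRNA, a difference of -0.45 ± 0.15 that missed the threshold (limma adjusted p = 0.127).

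The direction of all 4 extreme transcripts was the same in both assays. These transcripts were picked by their mRNA changes and the RPF libraries came from the same batches, so this too is a description. CN16779 had 480, 520 and 514 normalized RPF reads in developing larvae, against 2.28, 0 and 0 in diapause larvae. CN31679 had 1.83, 7.75 and 5.37 in developing larvae, against 34.9, 149 and 176 in diapause larvae. CN28746 had 145, 152 and 109 normalized RPF reads in developing larvae, against 0, 0.777 and 1.22 in diapause larvae, where 2 reads stood behind all the values. CN11316 had 3.66, 13.3 and 1.34 in developing larvae, against 91.9, 287 and 246 in diapause larvae. For CN11316 the log2 RPF difference was -5.12 ± 0.63. It was -4.42 with a pseudocount of 4 instead of 1, and between -5.83 (without RPF developing library b) and -4.52 (without RPF developing library c) with 1 library left out. For CN28746 the fitted difference depended on the pseudocount, at 6.41 with 1 and 4.89 with 4.

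The mRNA changes of C. brenneri had a smaller spread than those in the tables of the other species, each fitted on its own and set side by side here with no test between species. Changes above 2-fold made up 13.01% of the C. brenneri members, against 23.3% of 14076 in C. elegans, 19.3% of 13371 in C. remanei and 26.8% of 10954 in C. briggsae. The standard deviation of the log2 change was 0.70 in C. brenneri, 1.05 in C. elegans, 0.84 in C. remanei and 1.12 in C. briggsae. The median absolute change was 0.38 in C. brenneri, 0.49 in C. elegans, 0.46 in C. remanei and 0.56 in C. briggsae. The median standard error was 0.15 in C. brenneri, 0.14 in C. elegans, 0.16 in C. remanei and 0.15 in C. briggsae. Library totals ran between 9128165 and 23186858 reads for C. brenneri, between 6819850 and 26696180 for C. elegans, between 8081107 and 16471290 for C. remanei, and between 5361978 and 14037374 for C. briggsae.

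The share of members with a call was lowest in C. brenneri, where 45.7% of the members tested were called in either direction. It was 62.7% in C. elegans, 49.1% in C. remanei and 65.9% in C. briggsae. Over all rows tested the shares were 27.3% in C. brenneri, 47.1% in C. elegans, 26.5% in C. remanei and 44.5% in C. briggsae, so that C. brenneri and C. remanei lay close together. Species, annotation and growth batch cannot be told apart in these values.

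The 19 curated genes could be followed in all 4 species. The mRNA change of C. brenneri was smaller in absolute size than that of C. elegans for 17 of them, than that of C. remanei for 13 and than that of C. briggsae for 16. The median absolute log2 difference was 0.75 in C. brenneri, 0.96 in C. elegans, 1.18 in C. remanei and 1.07 in C. briggsae. For atg-18 the difference was -1.10 ± 0.11 in C. brenneri, -2.51 ± 0.12 in C. elegans, -1.65 ± 0.14 in C. remanei and -2.15 ± 0.12 in C. briggsae. For hsp-17 it was 1.45 ± 0.12 in C. brenneri, 3.23 ± 0.13 in C. elegans, 2.12 ± 0.18 in C. remanei and 3.58 ± 0.21 in C. briggsae. For odr-4 the 4 species lay between 0.73 and 1.07, within a few standard errors of each other.

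**Figure D5:**
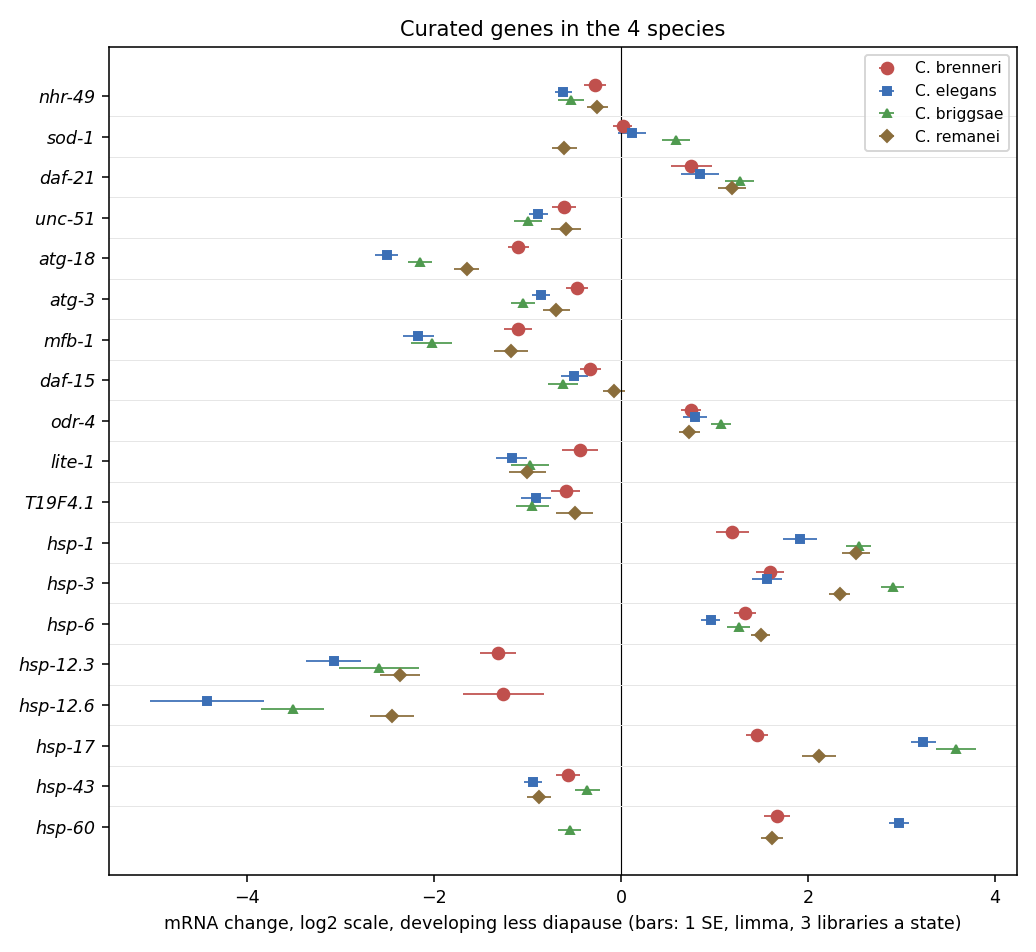
Log2 difference of mRNA, developing less diapause, for the 19 curated genes in C. brenneri (red circles), C. elegans (blue squares), C. briggsae (green triangles) and C. remanei (brown diamonds), with bars of 1 SE from limma on 3 libraries per state. The red circles lie closer to 0 than the blue squares for 17 genes, and hsp-60 is the gene with C. briggsae on the other side of 0 from the C. brenneri value at non-overlapping libraries.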

How the data were processed

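Starved and fed C. brenneri larvae (3 libraries per state and assay) were compared by mRNA-seq and RPF sequencing. The labels group the samples by species, state and assay. By their methods and processing notes, the authors trimmed reads, mapped them with Bowtie 0.12.7 to WS230 genomes and coding sequences, kept reads with 1 genomic position and counted them per coding sequence, keeping all alignments to coding sequences, so near-identical copies lose reads and isoforms can share them. The deposited signal columns are the means of normalized reads per state that the authors obtained with DESeq, and a deposited ratio column gives observed over fitted variance. The deposited fold changes and p-values of the authors' own comparison were not used.

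A mean of 3 libraries is a sum of whole reads times 3 fixed steps. The steps were found from the lowest rows, and the reads of each row were then the whole numbers that give the deposited value to 15 digits. Where several sets of numbers did so, the deposited variance ratio chose between them. In C. brenneri mRNA, 28602 diapause and 28605 developing rows of 28607 were resolved, and 5 members with means of 33679 or more entered no test. The recovered variance lay within 1% of the deposited one in 99.99% (developing) and 100% (diapause) of rows with a variance to check. On simulated data, all resolved rows were right.

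Log2(normalized reads + 1) was fitted with limma 3.58.1 (R 4.3.3, trend) on every row with a read, with Benjamini-Hochberg adjustment and a two-sided threshold of 0.1. Because the deposited tables hold means and not counts, no count model was used. mRNA and RPF reads were tested separately and, for their difference, in 1 fit of 12 libraries. In simulated C. brenneri mRNA reads of 28602 rows, 50 rows were changed at each of 1.5-fold, 2-fold, 4-fold and 8-fold. Of these, 82% of 4-fold and 42% of 2-fold changes were recovered, with 1 false call among members. Far fewer rows changed there than the 7801 called in the data, and simulated libraries shared no deviations between states. The simulation therefore does not give the share of changes missed or the false calls in the data. Tables, intervals and plots were made in Python 3.11.15.

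The study's methods say that starved and fed animals of a replicate came from 1 batch, and the labels number the batches, but the recovered libraries carry no number. Pairing them by order of depth was added after seeing the data. In mRNA the deviations of libraries of equal order correlated (r from 0.59 to 0.79), and each library correlated best with its own order. In RPFs they did not (r of 0.04, -0.29 and 0.32), so a block is given there as an alternative only.

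Curated genes were matched to rows by the log2 ratio of means in both assays at the 6 digits of the study's gene list, and for C. briggsae and C. remanei in mRNA alone. Beside these, the 2 largest rises and 2 largest falls among called members with non-overlapping libraries are named. Members and lists were chosen with earlier results of these data known. Alternatives were other pseudocounts, limits, scalings, weights and thresholds and leaving out libraries. Other scalings and weights were run for mRNA only. The 3 RPF tables of other species were not used.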

Additional observations from a re-analysis of the deposited data

Results flagged for a closer look

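The mRNA matched to hsp-60, the mitochondrial chaperonin, differed in direction between 2 species. The C. briggsae transcript was matched by its mRNA ratio alone, and whether it is the true counterpart of the C. brenneri gene was not tested. It averaged 6878 normalized reads in developing and 2155 in diapause C. brenneri larvae, and every developing library was above every diapause library (log2 difference 1.67 ± 0.14). In C. briggsae the matched transcript averaged 4457 in developing and 6534 in diapause larvae, with every developing library below every diapause library (-0.55 ± 0.12). The changes differ by 2.22 on the log2 scale. The difference between species was not tested. In C. elegans (2.98 ± 0.11) and C. remanei (1.61 ± 0.11) the gene was higher in developing larvae.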

How the results depend on the processing

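The share of members above 2-fold higher was 7.55% at a limit of 20 and 9.20% at 200, and the share above 2-fold lower was 5.63% and 4.17% at the same limits. At an adjusted p under 0.01, 2400 members were called higher and 1173 lower. Scaling by total reads called 4468 lower. Leaving out library a of both states, an alternative added after seeing the data, called 1507 lower. Pairing the libraries with a replicate block by order of depth, also added later, called 4906 higher and 4132 lower in mRNA. In the test of the difference between assays the same block gave 436 RPF changes below the mRNA change, and it moved neither count of RPF calls by over 1.5 times (5287 higher and 4239 lower). RPF libraries of equal order did not deviate together (r of 0.04, -0.29 and 0.32), so these values of the block carry no weight as a pairing. A block by labelled batch was not run, because the recovered libraries carry no batch number.

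With 1 library left out, members called higher ranged from 2977 to 3471 and lower from 1624 to 2379. RPF calls ranged from 4767 to 5149 higher and from 3003 to 3685 lower, RPF changes above the mRNA change from 937 to 1363 and below it from 53 to 140. The shares above 2-fold ranged from 7.27% to 9.12% higher and from 4.35% to 6.21% lower. No member called in both settings changed direction, in any of 14 alternative mRNA fits. These fits share libraries with the main fit, so a change of direction was unlikely from the start. Of the 6682 members called, 5642 kept their call with total-read scaling and 4536 without developing library b. Without library a of both states 4173 kept it, while 6649 did so with a pseudocount of 0.25. For sod-1 mRNA the sign turned with centring on the median change (-0.0043), scaling by total reads (-0.17) and without library a of both states (-0.023), and with 1 library left out it ranged from -0.018 to 0.042. Of the other named genes' values none changed sign, and 20 mRNA values lost and 8 gained a call. The median standard error was 0.22 in the least abundant class. The cause of these shifts was not tested.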
